A study of Homo sapiens with 24 samples.

Results

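CD34, FLT3, LAPTM4B and CD109 are 4 genes of stem and progenitor cell membranes, and their messenger RNA was followed here across 4 human acute myeloid leukaemia lines with and without metformin. They were taken by symbol from the 14884 genes that the array annotation names, and each was represented by its row with the highest mean over 24 arrays. The genes were chosen by their levels on these same arrays, which differ between lines. The levels by line are therefore a description with no test, and tests are given for the metformin changes. All 4 passed the filter on low values that left 10641 genes for testing, CD34 through KG1a and FLT3 through MOLM14 alone.

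The arrays were Affymetrix arrays hybridized with RNA of HL60, KG1a, MOLM14 and U937 cells. Each line was either left untreated or given 10 mM metformin for 24 h, which makes 8 groups of 3 arrays, lettered A to C. Metformin is a biguanide that inhibits complex I of the mitochondrial electron transport chain. HL60 is a promyelocyte-type line, U937 a monocytic line from a histiocytic lymphoma, KG1a an immature subline of KG1, and MOLM14 a monocytic line known for an internal tandem duplication in FLT3. Each is a single established line, so a difference between lines is a difference between single models. The labels give a status of high oxidative phosphorylation (OXPHOS) to KG1a and MOLM14 and of low to HL60 and U937. A further label counts metformin-treated KG1a and MOLM14 as low OXPHOS. Whether arrays A to C stem from separate cultures is not stated, and the p-values cover the spread among them alone, which may be technical. The precision is limited by the number of arrays.

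CD34 is a sialomucin on the surface of blood stem and early progenitor cells and is lost as they mature. FLT3 is the receptor tyrosine kinase for FLT3 ligand; it drives progenitor growth through STAT5, PI3 kinase and RAS signalling and is often mutated in this leukaemia. LAPTM4B spans the membrane of late endosomes and lysosomes rather than being a classical surface marker, and it belongs to LSC17, a published expression score for leukaemia stem cells that also holds CD34. CD109 is a surface protein of the alpha-2-macroglobulin family held by a lipid anchor, found on CD34+ progenitors, and it restrains TGF-beta signalling.

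The 250 bases before the RefSeq start of 3 of the genes are shown to go with their levels by line, and that of LAPTM4B is not shown here. The coordinates are of GRCh38.p14. The CD34 stretch is chr1:207911126-207911375 on the minus strand, the FLT3 stretch chr13:28100577-28100826 on the minus strand, and the CD109 stretch chr6:73695953-73696202 on the plus strand. Each is written in the direction of transcription, and capitals mark matches to the motifs named after the sequences.
CD34: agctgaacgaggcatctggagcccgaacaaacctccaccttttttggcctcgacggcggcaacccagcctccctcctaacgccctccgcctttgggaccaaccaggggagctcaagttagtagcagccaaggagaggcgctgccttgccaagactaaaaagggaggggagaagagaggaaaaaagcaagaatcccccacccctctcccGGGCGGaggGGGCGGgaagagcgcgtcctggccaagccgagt
FLT3: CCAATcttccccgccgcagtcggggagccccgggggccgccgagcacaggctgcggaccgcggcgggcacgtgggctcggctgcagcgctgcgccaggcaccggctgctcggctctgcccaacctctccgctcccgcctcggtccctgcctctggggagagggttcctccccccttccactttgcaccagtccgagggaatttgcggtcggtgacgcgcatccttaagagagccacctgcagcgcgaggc
CD109: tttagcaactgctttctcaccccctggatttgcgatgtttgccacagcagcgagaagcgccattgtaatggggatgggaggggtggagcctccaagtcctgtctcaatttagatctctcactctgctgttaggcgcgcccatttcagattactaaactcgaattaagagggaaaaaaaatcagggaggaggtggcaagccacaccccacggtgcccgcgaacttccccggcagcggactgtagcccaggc
Each stretch was searched on both strands for 6 short motifs, which do not overlap in the matches found. The GC box, with the letters GGGCGG, was found in CD34 at 2 places in the last part of the stretch, and 42.6% of 35116 promoters of this length hold it. The box known as CCAAT was found in FLT3 once, at the end farthest from the start site, and 32% of promoters hold it. CD109 held none of the 6 motifs. The others were found in none of the 3 stretches. Of these the TATA box was spelled TATAAA and is held by 10.7% of promoters. The core bound by RUNX factors was spelled TGTGGT, held by 11%. The core bound by GATA factors was spelled AGATAA, held by 9.17%. The core bound by MYB was spelled AACGG, held by 16.5%. FLT3 had 26 CpG pairs and a GC content of 72.0%, CD34 14 and 61.6%, and CD109 11 and 54.4%, against medians of 11 and 58 over all promoters. These matches describe letters and not binding.

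Signals are log2 normalized values. Across the table the array medians lay between 3.99 and 4.08, and values under 4.02, the median of all rows, sit in the range where differences are compressed. Untreated array C of HL60, untreated array C of U937 and treated array A of U937 each had the lowest mean correlation with the others of its group, 0.984, 0.987 and 0.986. They are called here the 3 arrays that stand apart, and results that rest on them are also given without them. No cutoff on this value yields these 3: untreated array A of HL60, also at 0.987, was kept. In bulk RNA, fewer cells that carry a transcript and less of it per cell cannot be told apart.

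CD34 was high in KG1a and near the bottom of the scale in the other 3 lines. The untreated KG1a arrays read 11.27, 11.18 and 11.26, and the metformin arrays 11.21, 11.26 and 11.37. Untreated HL60 read 3.35, 3.44 and 4.03, MOLM14 3.60, 3.59 and 3.52, and U937 3.57, 3.27 and 3.75. These 9 values share 1 range, and only array C of untreated HL60 passed 4.02. The metformin arrays of the same 3 lines lay between 3.35 and 3.64. Untreated KG1a stood 7.63 above the next line, HL60, whose value is in the compressed range, so no fold is given. Against the mean of the other 3 untreated lines the difference was 7.67, the largest positive KG1a difference among the 10641 genes, a place that follows from the levels by which the gene was chosen.

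FLT3 gave the same kind of picture in another line. Untreated MOLM14 read 10.29, 10.42 and 10.44, and metformin-treated MOLM14 10.54, 10.55 and 10.45. Untreated HL60 read 3.73, 3.52 and 3.67, U937 3.30, 3.20 and 3.54, and KG1a 3.17, 3.35 and 3.31. None of the 18 arrays outside MOLM14 reached 4.02, and the groups that neighbour each other in that low range overlapped. Untreated MOLM14 stood 6.74 above HL60 and 6.96 above the mean of the other 3 lines, again first among 10641 genes for its line.

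LAPTM4B was high in both lines labelled high OXPHOS. Untreated KG1a read 10.14, 10.19 and 10.11, and untreated MOLM14 9.06, 9.06 and 9.09, so KG1a stood 1.07 higher (2.11-fold) with no overlap. Untreated U937 read 3.62, 3.42 and 3.48 and untreated HL60 3.59, 3.27 and 3.60, which overlapped. The step from MOLM14 down to U937 was 5.56. Relative to the other 3 lines, KG1a was 4.79 higher (31st of 10641 genes from the top) and MOLM14 3.36 higher (44th), while HL60 was 7th and U937 10th from the bottom of their own orders.

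CD109, on the row used, differed from line to line. Untreated KG1a read 9.39, 9.35 and 9.38, MOLM14 6.76, 6.84 and 6.98, U937 4.45, 4.46 and 4.39, and HL60 3.43, 3.45 and 3.57. No line overlapped the next, and the steps were 2.51 (5.70-fold), 2.43 (5.39-fold) and 0.95. U937 is the only low OXPHOS line with a member above 4.02 on all its arrays. The annotation gives CD109 a further row, which disagrees: it read 4.33, 4.14 and 4.22 in untreated KG1a, 3.99 to 4.08 in treated KG1a, and 3.17 to 3.74 in the other lines. KG1a was highest on both rows. The untreated means of MOLM14, U937 and HL60 on the further row were 3.58, 3.59 and 3.59, so the steps between these lines rest on the used row alone.

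**Figure D1:**
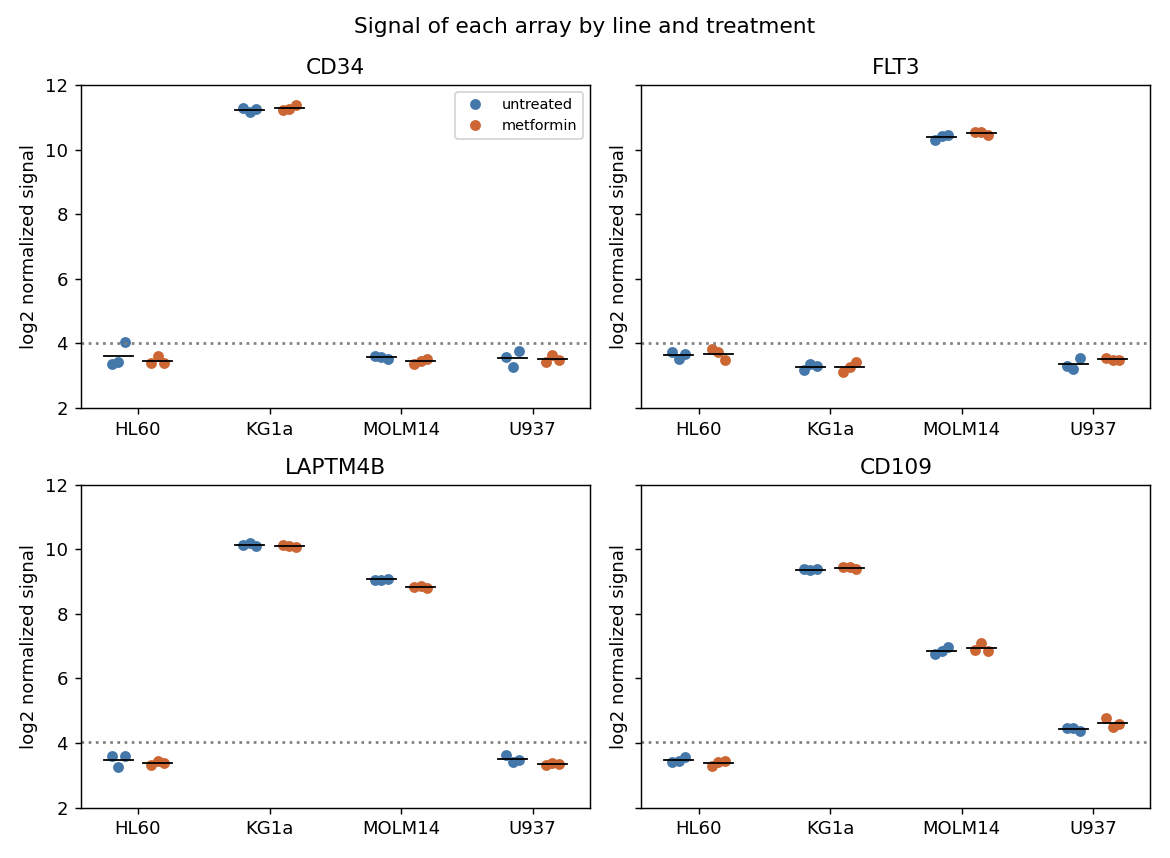
Log2 normalized signal of CD34, FLT3, LAPTM4B and CD109 on each of 24 arrays, by line, untreated (blue) or with metformin (orange); lines mark group means of 3 arrays and the dotted line is 4.02, the median of all rows. CD34 stands up in KG1a only, FLT3 in MOLM14 only, LAPTM4B in both, and CD109 falls from KG1a through MOLM14 and U937 to HL60.

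High minus low OXPHOS, the untreated class means differed by 3.84 for CD34, 3.34 for FLT3, 6.11 for LAPTM4B and 4.16 for CD109. For CD34 and FLT3 that class difference comes from 1 line of the class, and the other line of the class is at the level of the low lines. In LAPTM4B and CD109 both high OXPHOS lines lay above both low OXPHOS lines. LAPTM4B and CD109 were the most alike pair, with a root mean square difference of 1.15 between their centred profiles over 8 group means and a Pearson r of 0.95. CD34 and FLT3 were the least alike, at 5.29. The 8 means share 4 lines, so these values are a description.

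Metformin left the order of the lines in place for each gene where lines did not overlap, and no member passed the test within a single line. In HL60, 0 of 4 genes were called, where 25.1% of all tested genes were, and in KG1a 0 of 4, against 2.49%. MOLM14 also had 0 of 4, against 5.06%, and U937 0 of 4, against 17.2%. The group means of all 4 members lay under 4.02 in HL60, and in U937 those of all but CD109. FLT3 was under it in KG1a and CD34 in MOLM14. Differences are compressed there, so these counts are not to be read against the shares of all genes. Before adjustment, limma's fit put 1 member under the threshold of 0.05 in MOLM14, LAPTM4B, 1 in U937, CD109, and 0 in HL60 and KG1a.

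CD34 in KG1a changed by 0.04 ± 0.13 (log2, SE; adjusted p = 0.923), with a 95% interval from -0.23 to 0.32. In the lines where it is near the bottom of the scale the estimates were -0.14 in HL60, -0.13 in MOLM14 and -0.01 in U937. The HL60 value rests on 1 array: without untreated array C it was 0.07. The mean over the 4 lines was -0.06 ± 0.07 (adjusted p = 0.525).

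FLT3 in MOLM14 was 0.13 ± 0.10 higher with metformin (adjusted p = 0.562), with an interval from -0.07 to 0.34. Its lowest treated array, at 10.45, lay just above its highest untreated array, at 10.44. The 3 other lines, all under 4.02, gave 0.04 in HL60, -0.01 in KG1a and 0.16 in U937. The mean over lines was 0.08 ± 0.05 (adjusted p = 0.239).

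LAPTM4B fell when the 4 lines were averaged, and it is the member that passed the test. In MOLM14 the treated arrays read 8.84, 8.88 and 8.79, all below the untreated ones, a difference of -0.24 ± 0.08 (adjusted p = 0.0928; interval -0.40 to -0.07). In U937 they read 3.32, 3.38 and 3.36, also all below the untreated arrays, a difference of -0.16 ± 0.08 (adjusted p = 0.200). Treated HL60 read 3.34, 3.45 and 3.39 and treated KG1a 10.14, 10.10 and 10.07, which overlapped their controls, with differences of -0.09 and -0.04. The KG1a interval ran from -0.21 to 0.12. The mean over lines was -0.13 ± 0.04 (adjusted p = 0.0135, lower in 4 of 4 lines). All HL60 and U937 arrays lie under 4.02, so only the KG1a and MOLM14 changes, whose mean was -0.14, are of a clearly measured signal, and neither passed alone. For this mean 32.3% of all tested genes were called and 16.1% were called lower. The call was lost without MOLM14 (-0.10, adjusted p = 0.174) and without U937 (-0.12, adjusted p = 0.0594), and over all alternatives the adjusted p ran from 0.00145 to 0.174.

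CD109 did not pass in any line. In KG1a the treated arrays read 9.46, 9.45 and 9.39, a difference of 0.06 ± 0.09. Treated MOLM14 read 6.87, 7.11 and 6.85 (0.08), and treated HL60 3.29, 3.42 and 3.45 (-0.10). In U937 the treated arrays read 4.77, 4.49 and 4.60, all above the untreated ones, and the difference was 0.19 ± 0.09 (adjusted p = 0.140). Without the 3 arrays that stand apart, of which array C of untreated U937 and array A of treated U937 bear on this value, it was 0.09, and with both rows of the gene averaged it was -0.01. The mean over lines was 0.06 ± 0.04 (adjusted p = 0.326).

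Arrays of the treated and untreated groups did not overlap for CD34, FLT3 and LAPTM4B in MOLM14, where 26.4% of all tested genes were separated, and for LAPTM4B and CD109 in U937, where 29.9% were. In HL60 and KG1a no member was separated, where 37.2% and 21.0% of genes were. The response of the lines was also compared directly. The F test over 4 lines gave adjusted p of 0.812 for CD34, 0.744 for FLT3, 0.586 for LAPTM4B and 0.380 for CD109, and it called 10.0% of all genes. High minus low OXPHOS lines, the change of CD34 differed by 0.04, of FLT3 by -0.04, of LAPTM4B by -0.02 and of CD109 by 0.02, and limma called 0 of 4, also before adjustment, against 6.69% of all genes. For LAPTM4B the interval of that difference ran from -0.18 to 0.15.

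**Figure D2:**
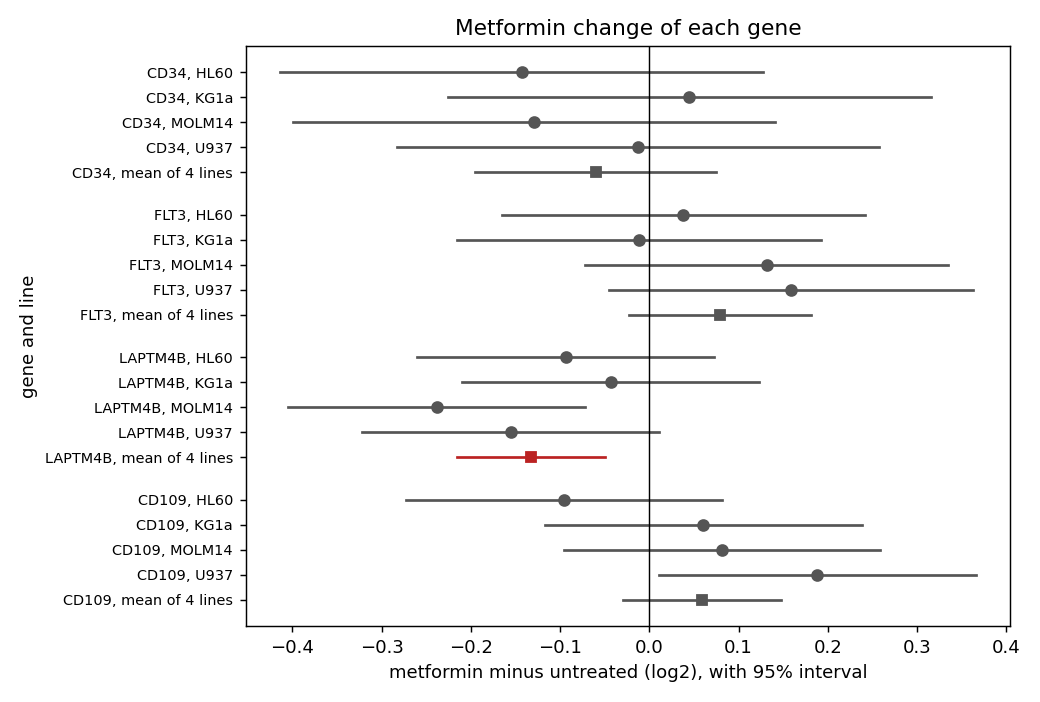
Metformin minus untreated signal (log2) of CD34, FLT3, LAPTM4B and CD109 in each line (circles) and averaged over 4 lines (squares), with 95% intervals from limma's fit. The LAPTM4B mean, -0.13, in red, is the single value past the adjusted threshold, and the LAPTM4B estimate is below 0 in each line.

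The genes whose profile over the 8 groups was most like each member were found by the root mean square difference of centred means over the tested genes. For CD34 these were KIAA0087 (0.48), NETO1 (0.48), an auxiliary subunit of glutamate receptors, GFRA1 (0.52), a receptor for the neurotrophic factor GDNF, PCDH10 (0.67), a protocadherin, and CD96 (0.68), an immunoglobulin-family protein reported on leukaemia stem cells. All 5 were high in KG1a, from 9.83 to 10.52 over its 6 arrays, against 3.17 to 4.47 in the other lines. They did not share CD34's metformin values throughout: CD96 rose by 1.11 ± 0.12 in HL60 (adjusted p = 1.54e-07) and KIAA0087 rose by 0.33 in KG1a (adjusted p = 0.0336) and fell by 0.28 in U937 (adjusted p = 0.0259). KIAA0087 averaged 3.17 in U937, in the compressed range, so that fall has limited meaning.

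PDLIM1, an actin-associated PDZ and LIM protein, was most like FLT3 (0.35), with 10.35 in MOLM14 and 4.05 to 4.25 elsewhere. POPDC1 (0.69), the desmosomal cadherin DSC2 (0.80), PLXDC2 (0.81) and the R-spondin receptor LGR4 (0.97) followed. LGR4 was the one of these 5 with metformin calls: it fell by 0.65 in HL60 (adjusted p = 1.67e-06) and by 0.30 in MOLM14 (adjusted p = 0.0259), where FLT3 was at 0.04 and 0.13.

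CRISPLD1 (0.58), the glutathione peroxidase family member GPX7 (0.67), the relaxin receptor RXFP1 (0.77), the centrosomal protein CEP70 (0.92) and the sorting nexin SNX19 (0.99) were most like LAPTM4B. In those 5 genes KG1a read 7.93 to 9.75 and MOLM14 6.29 to 8.38. CEP70 alone among them had a metformin call within a line. It rose by 0.27 in HL60 (adjusted p = 0.0439), where LAPTM4B was at -0.09. For CD109 they were ZC3H12C (0.40), ZNF718 (0.48), the Wnt receptor FZD6 (0.50), SNX19 (0.52) and ZNF85 (0.57). No gene of this CD109 set had a metformin call within a line. SNX19 stood in both groups. ZC3H12C also shared the step of CD109 between U937 and HL60, with 4.64 and 3.45 against 4.53 and 3.44 for CD109. The other 4 genes had 2.92 to 3.78 in U937 and 2.98 to 3.96 in HL60.

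**Figure D3:**
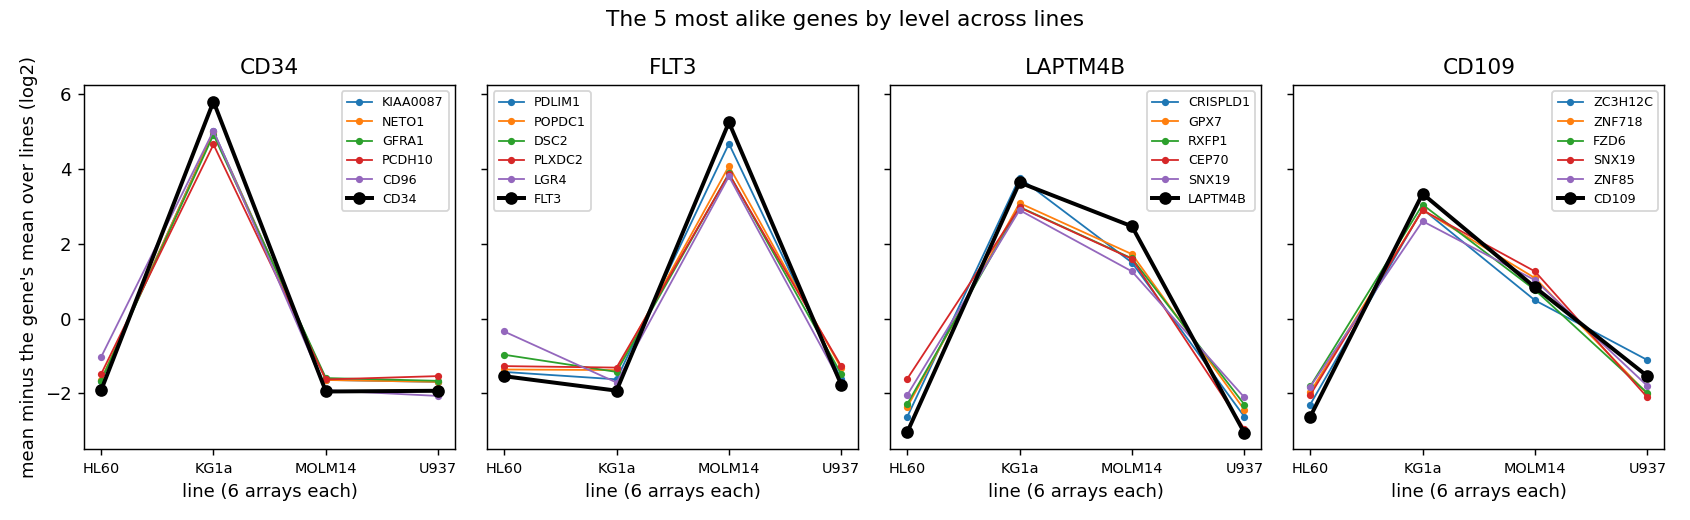
Mean log2 signal of each line (6 arrays each) minus the gene's mean over lines, for CD34, FLT3, LAPTM4B and CD109 (black) and the 5 genes most alike each (colours). The CD34 set rises in KG1a, the FLT3 set in MOLM14, and the LAPTM4B and CD109 sets in both, with KG1a higher.

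LSC17 gives a wider view of the stem cell programme around CD34 and LAPTM4B. Of its 17 genes, 15 had a row; DPYSL3 and BEX3 stayed under the filter, CPXM1 and AKR1C3 were not analysed here, and 11 tested genes remained beside the members. Untreated KG1a was the highest line in 9 of the 11, or 81.8%, against 26.3% of all tested genes. The count was also 9 with quantile normalization, with centred arrays, without the 3 arrays that stand apart, and in the metformin arrays. MMRN1, NYNRIN, ARHGAP22, EMP1 and ADGRG1 passed the filter through KG1a alone, which fixed their place among the 9. The filtered DPYSL3 and BEX3 were highest in untreated MOLM14, at 3.99 and 3.37. The count, and the KG1a calls that follow, are therefore not to be read against the shares of all genes. Against the mean of the other untreated lines, 9 of the 11 were called higher in KG1a and 2 lower. Of all genes 29.2% were called higher and 33.6% lower. The median difference was 1.45, against -0.03 over all genes.

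Among those 9, MMRN1, a multimerin, read 8.53 ± 0.10 (SD, n = 3) in untreated KG1a and 3.42 to 3.47 elsewhere. SMIM24 read 8.82, with 3.65 to 4.59 elsewhere, and the noncoding gene FAM30A 8.33, with 3.84 to 4.16 elsewhere. DNMT3B, a de novo DNA methyltransferase, read 8.32, and CDK6, a cell cycle kinase, 9.20 with 8.43 in MOLM14. SOCS2, a feedback inhibitor of cytokine receptor signalling, followed FLT3 instead, with 6.63 in MOLM14 and 4.32 to 4.49 elsewhere. ZBTB46 was highest in U937, at 5.51. Metformin changed 1 of the 11 in 1 line: FAM30A rose by 0.36 ± 0.12 in U937 (adjusted p = 0.0441). Of all genes 17.2% were called in U937, and 7.46% were called higher. The FAM30A rise began at 3.84, under 4.02, so its size has limited meaning. In HL60, KG1a, MOLM14 and the mean of lines limma called 0 of 11, against 25.1%, 2.49%, 5.06% and 32.3% of all genes. MMRN1, NYNRIN, ARHGAP22, EMP1 and ADGRG1 averaged under 4.02 in every line but KG1a, where differences are compressed. The metformin counts outside KG1a, and for the mean, are therefore not to be read against these shares. Before adjustment 2 were under 0.05 in HL60, 1 in KG1a and 0 in MOLM14 and the mean. The median change over lines was -0.03, against -0.01 for all genes.

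**Figure D4:**
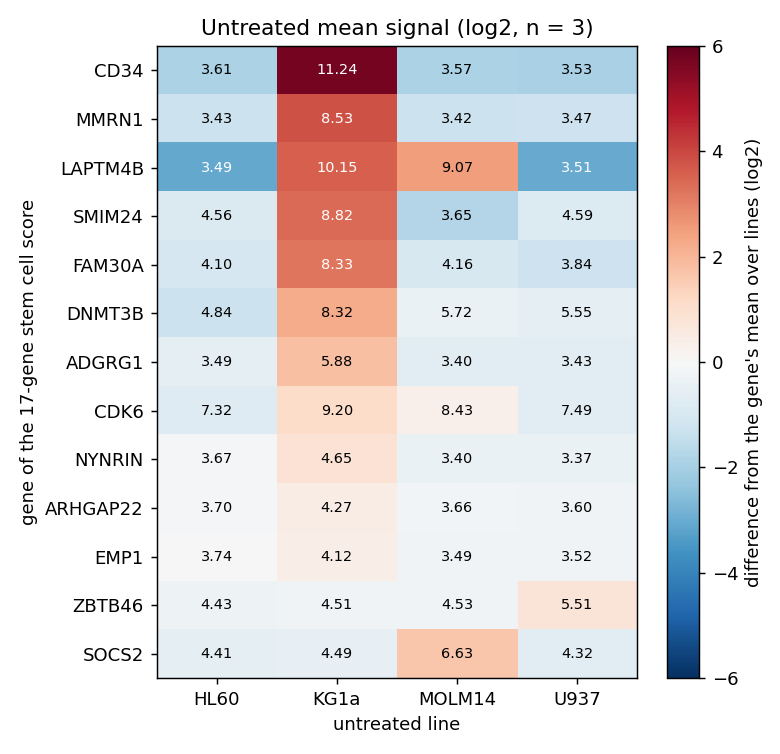
Untreated mean log2 signal (3 arrays each) of the 11 tested LSC17 genes with CD34 and LAPTM4B, by line; colour is the difference from the gene's mean over lines. KG1a holds the highest value in each gene but ZBTB46 and SOCS2.

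Close relatives of the members differed among themselves in their order over lines. EMCN, a sialomucin like CD34, was also high in KG1a alone, 7.57 against 3.50 to 3.59. PODXL2, a member of the CD34 family, had its lowest untreated level there, 4.93, and 7.07 to 8.44 elsewhere. Of the other class III receptor kinases, KIT lay between 3.67 and 4.24, and CSF1R, the receptor for macrophage growth factor, was highest in MOLM14 like FLT3, at 5.99. LAPTM5 was high in every untreated line, 10.65 to 11.12, as was LAPTM4A, 8.04 to 9.10. Of 11 tested relatives, metformin lowered PODXL2 and LAPTM5 in HL60 and CSF1R in MOLM14, where 9.56% and 2.57% of all genes were called lower. PODXL2 fell by 0.41 ± 0.12 (adjusted p = 0.0125), LAPTM5 by 0.28 ± 0.07 (adjusted p = 0.00594) and CSF1R by 0.66 ± 0.11 (adjusted p = 0.000412). For the mean of lines PODXL2 and CSF1R were called lower, the latter not without the 3 arrays (adjusted p = 0.120). The CSF1R mean rests on MOLM14, as its change was 0.08 in HL60 and -0.01 in both KG1a and U937. Over lines the list's median was -0.05. For this mean 16.1% of all genes were called lower.

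Several genes of FLT3 signalling passed the metformin test, in lines with and without FLT3 signal. Of 27 tested signalling genes, metformin raised 8 and lowered 1 in HL60, raised 3 and lowered 3 in MOLM14, raised 2 and lowered 6 in U937, and changed 0 in KG1a, where limma put 4 under 0.05 before adjustment. The shares over all genes were 15.5% higher and 9.56% lower in HL60, 2.48% and 2.57% in MOLM14, 7.46% and 9.74% in U937, 0.818% and 1.67% in KG1a, and 16.3% and 16.1% for the mean of lines. In MOLM14 the feedback inhibitor SOCS1 fell by 0.59 ± 0.09 (adjusted p = 0.000403), the STAT5 target kinase PIM2 fell by 0.37 ± 0.10 (adjusted p = 0.0367), and the RAS pathway inhibitor SPRY2 rose by 0.40 ± 0.10 (adjusted p = 0.0181). In HL60, where FLT3 was under 4.02, the adaptor GAB2 rose by 1.26 ± 0.14 (adjusted p = 4.42e-07) and PIM2 fell by 0.66. Over lines 5 were higher and 4 lower, with a median of 0.01.

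For the TGF-beta pathway, which CD109 restrains, 14 genes were tested. Metformin raised 6 in HL60, 1 in KG1a, 2 in MOLM14 and 4 in U937, and it lowered 1 in MOLM14 and 1 in U937. Of all genes, 15.5% were called higher in HL60, 0.818% in KG1a, 2.48% in MOLM14 and 7.46% in U937. Called lower were 2.57% in MOLM14 and 9.74% in U937. SKIL, a SMAD corepressor, rose by 0.55 ± 0.06 over lines (adjusted p = 9.85e-08). SMAD6, an inhibitory SMAD, rose by 0.71 ± 0.14 in KG1a (adjusted p = 0.00472) and by 0.69 ± 0.14 in HL60 (adjusted p = 0.000559), the lines with the highest and the lowest CD109. Over lines 4 were higher and 1 lower, against 16.3% and 16.1% of all genes, with a median of 0.06. Among 16 lysosome and late endosome membrane genes, the compartment of LAPTM4B, 1 was higher and 3 lower over lines. The shares of all genes were again 16.3% and 16.1%, and the list's median was -0.05. The channel MCOLN1 fell by 0.24 ± 0.04 (adjusted p = 0.000106). In MOLM14, where LAPTM4B differed most, the list had 1 call, a rise of 0.50 in RRAGD, an activator of mTORC1 at the lysosome (adjusted p = 0.00421). There 5.06% of all genes were called.

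Of 17 tested other stem and progenitor surface markers, untreated KG1a was highest in 7 (41.2%, against 26.3% of all genes), MOLM14 in 5 (29.4%, against 22.4%), U937 in 4 (23.5%, against 25.2%) and HL60 in 1 (5.88%, against 26.2%). PROM1 and HAVCR2 passed the filter through KG1a alone and CD9 through MOLM14 alone, which fixed their place. Metformin raised 4 of the 17 and lowered 1 in HL60, and raised 3 and lowered 1 in U937. It changed 0 in KG1a and MOLM14, where limma put 3 and 1 under 0.05 before adjustment. Of all genes, 15.5% were called higher and 9.56% lower in HL60, and 7.46% and 9.74% in U937. In KG1a 2.49% of all genes were called, and in MOLM14 5.06%. CD38, an ectoenzyme of more mature progenitors, rose by 1.17 ± 0.15 in HL60 (adjusted p = 2.12e-06), where CD34 was under 4.02 on all but 1 array. Over lines 4 were higher and 1 lower, against 16.3% and 16.1% of all genes, with a median of 0.04. CD47, the signal that holds off phagocytes, rose over lines by 0.35 ± 0.04 (adjusted p = 1.21e-06). Of 19 progenitor transcription factors, KG1a was highest in 8 (42.1%, against 26.3% of all genes), ERG among them (7.32, next U937 at 5.55). TAL1 was another, and it passed the filter through KG1a alone. MEIS1 was at 6.80 in MOLM14 and 6.53 in U937, and 3.39 and 3.52 in HL60 and KG1a. Over lines metformin raised 6 of the 19 and lowered 2, against 16.3% and 16.1% of all genes, with a median of 0.00. BCL11A rose over lines by 0.33 ± 0.05 (adjusted p = 6.29e-06).

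Of 10 tested maturation surface markers, 9 were called lower in untreated KG1a than in the mean of the other lines and 1 higher. Of all genes 33.6% were called lower there and 29.2% higher. The higher marker was ANPEP, the aminopeptidase CD13, which read 9.29 in KG1a, 9.39 in U937, 5.51 in HL60 and 3.81 in MOLM14. Untreated KG1a was the highest line in 0 of the 10, against 26.3% of all tested genes, and MOLM14 in 5, or 50%, against 22.4%. Metformin raised 2 and lowered 4 over lines, against 16.3% and 16.1% of all genes, with a median of -0.13. In MOLM14 it raised 1 and lowered 3, against 2.48% and 2.57% of all genes. Among those lowered was the chemokine receptor CCR2, by 0.86 ± 0.10 (adjusted p = 1.02e-05). The 6 general myeloid markers with a row reached 4.02 in 6 of 6 for untreated HL60 and MOLM14, 5 of 6 for U937 and 1 of 6 for KG1a, where SPI1, the myeloid transcription factor PU.1, was the highest at 4.65. Their summed log2 values were 22.3 in KG1a, 51.3 in U937, 55.4 in HL60 and 60.4 in MOLM14. Such a sum is no amount, and in KG1a it is made mostly of values under 4.02. Of 17 markers of other cell types with a row, 8 reached 4.02 in untreated U937, 7 each in HL60 and MOLM14, and 6 in KG1a. The epithelial keratin KRT18 was among them in each line and read 7.62 in MOLM14 and 6.78 in HL60. In MOLM14, the line high in FLT3, NCAM1 of NK cells read 7.85, the endothelial PECAM1 6.65 and the B cell factor PAX5 6.29. There 2 of 4 T and NK cell markers and 1 of 4 endothelial markers reached 4.02. PAX5 was the only B cell marker with a row, and it reached 4.02 in every line. Endothelial cells also carry CD34, and of 4 endothelial markers PECAM1 alone reached 4.02 in KG1a, at 5.54. The part of these cell-type differences in the members' levels was not tested.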

How the data were processed

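Log2 normalized signals of 24 arrays were used as deposited. The authors' log2 values were made with software that included Partek, per the submitters' processing notes; background correction, normalization and log base were not stated in the sources, and log2 was judged from values of 1.88 to 14.2. Labels state 250 ng of input RNA. Of 53617 rows, 16098 name 1 gene and 37519 are unnamed here; all 16098 identifiers matched RefSeq GRCh38.p14 and 0 symbols changed. Genes with a group mean of at least 4.02 were kept, and Y-linked genes were left out of the search for alike profiles. In R 4.3.3, limma 3.58.1 modelled the 8 groups (16 residual degrees of freedom) with empirical Bayes moderation and Benjamini-Hochberg adjustment over 10641 genes at 0.05. Code was tested on simulated data, with 100 genes changed at each of 2 sizes in MOLM14. Of changes of 0.25 (log2) 11% were recovered, and of changes of 1 100%, with 8 false calls. A member that was not called in MOLM14 may therefore still differ by about 0.25. Other lines and the mean of lines were not simulated, and members may differ there too without a call. Figures used matplotlib 3.10.9 in Python 3.11.15.

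Members and lists were chosen with earlier results of these data known. Named genes are the members, the 5 most alike genes of each, tested LSC17 genes and relatives, and, per other list, up to 3 calls with the largest change per line and 2 for the mean; others named for their level were chosen after their values were seen. Alternatives were row averaging, other filters, centred arrays, quantile normalization, replicate blocks, each line's arrays alone, and leaving out arrays or lines. The replicate block within lines and the scaling checks of lists were chosen after seeing the data. Correlations between arrays of a group lay between 0.983 and 0.993.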

Additional observations from a re-analysis of the deposited data

Results flagged for a closer look

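The 61 genes counted here are the members, their most alike genes and the list genes named for metformin calls. The metformin change of 24 of the 61 differed between lines by limma's F test with adjusted p under 0.05. None of the 24 is CD34, FLT3, LAPTM4B or CD109. Tested LSC17 genes and relatives without a metformin call were also searched. They lie outside the 61, and none of them was flagged. Over all tested genes the share was 10.0%, and many of the named genes were picked for large changes within a line, so their count is not to be read against it. Each value is the highest minus the lowest metformin change over the 4 lines, in log2.

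Among stem cell surface markers the span was 1.17 for CD96 (adjusted p = 9.58e-05), 0.96 for CD38 and 0.88 for CD82. Among genes of FLT3 signalling it was 1.03 for GAB2, 0.89 for SPRY2 (adjusted p = 8.57e-05), 0.69 for CISH, 0.61 for STAT5A and 0.59 for SOCS1. Among genes of the TGF-beta pathway SMAD6 had 0.90 and TGIF1 0.89 (adjusted p = 5.05e-05).

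For maturation markers the span was 0.95 in CEACAM6, 0.93 in CCR2, 0.74 in CSF1R, 0.74 in TLR2, 0.62 in TLR4 and 0.48 in CX3CR1. Progenitor transcription factors gave 0.66 for GATA2, 0.59 for BCL11A and 0.46 for IKZF1. Lysosome genes gave 0.67 for TMEM192 and 0.57 for RRAGD (adjusted p = 0.0499). Of the genes with profiles like the members, LGR4 had 0.72, KIAA0087 0.61 and RXFP1 0.41. On average KIAA0087 lay under 4.02 in every line but KG1a, and RXFP1 in HL60 and U937. Other spans also have an end in a line that averaged under 4.02. Examples are CD96 in MOLM14, GAB2, TGIF1 and RRAGD in KG1a, and SOCS1 and LGR4 in U937. The size of all these spans has limited meaning.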

How the results depend on the processing

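No member value changed direction while called under any alternative run, and LAPTM4B averaged over lines was the one call that was lost, at -0.10 without MOLM14 and -0.12 without U937 (adjusted p = 0.174 and 0.0594). With each array left out in turn it ran from -0.16 to -0.12 with adjusted p from 0.00145 to 0.0300. A replicate block left it at -0.13 (adjusted p = 0.0178) and changed no other member's call; the block gave 234 KG1a genes against 265, and within each line 133. The letters were not taken to pair arrays: same-letter correlations ran from -0.06 to 0.15, 1 of 12 above 0.1, and 6 of 12 were highest with their own letter.

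LAPTM4B in untreated KG1a exceeded MOLM14 by 1.15 with quantile normalization (1.07 as given), and CD109 by 1.58 with all rows averaged (2.51 as given). In addition, 34 member values that were called in neither fit changed sign. Counts of genes called moved for KG1a to 83 with its 6 arrays alone, 470 without the 3 arrays that stand apart, and 97 to 170 with an array left out. For U937 (1830) they were 847 with 6 arrays alone and 1136 to 1782 with an array left out, and for MOLM14 (538) 307 to 457. Without HL60 the mean over lines gave 2207 (3441 as given), and the class difference 274 without HL60 and 274 without KG1a (712 as given). Those fits hold fewer arrays, and the causes of the moved counts were not tested. Of 118 calls of list genes, 0 changed sign, 12 were lost with quantile normalization, 14 with centring and 19 without the 3 arrays, GAB2 and CD38 in U937 among them. No signal over background was used, so changes of members and of other genes under 4.02 have limited meaning.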
